A study of Mus musculus with 7 samples.

Results

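The widest accessible regions of CD4+ T cells responding to the helminth Nippostrongylus brasiliensis were examined in an ATAC-seq experiment. ATAC-seq uses a transposase that cuts open chromatin and inserts adapters, so that insertions per region measure accessibility. The members were the autosomal regions of the deposited table whose end minus start was at least 3000 bp. There were 1465 of them among 113820 regions (1.29%), and 8 regions of the X chromosome with that width were left out. All libraries were made from 50000 sorted CD4+ T cells of C57BL/6 mice infected with 500 L3 larvae 8 days earlier. LN IL-4+ cells (n = 2) were GFP+ cells of the mediastinal lymph node and lung IL-4+ cells (n = 3) GFP+ cells of the lung of the IL-4-4get GFP reporter, which marks cells that transcribe Il4 and not only those that secrete IL-4. Lung IFNγ+ cells (n = 2) were YFP+ cells of the IFN-gamma-Great YFP reporter, so reporter line and population cannot be told apart there. The labels do not give the age of the mice. The study's text describes the replicates of a population as cells of different mice, all infected in the same experiment. The p-values rest on the spread between libraries of a population, pooled over the 3 populations, and not on that between experiments. This spread includes a split of the libraries that crosses the populations and is described below, so it is not that between mice alone. No uninfected cells were compared.

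A wide region of this kind is a chain of neighbouring peak summits that were merged because the windows around them overlapped. Broad open stretches are known to lie at the promoters and enhancer clusters of genes that define a cell type, and in T cells they are typical of genes for lineage transcription factors, antigen receptor signalling and activation. The sites inside them carry the short motifs bound by RUNX, ETS, T-box, GATA, AP-1, TCF and NFAT factors, several of which need an antigen signal to bind. The windows were drawn around summits of these same libraries, so the width itself came from the data. No comparison between populations was used in the choice. However, summits were called per replicate, so a region could become wide through the libraries in which it was high. How far this shaped the differences between libraries and populations described below was not tested.

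Sequences are shown for the members with the largest changes between populations, since these carry the differences described later. In each, the 300 bases holding most matches to 7 short motifs are printed from the plus strand of GRCm38, with the matches in capitals. All were searched on both strands. RUNX factors, which act throughout T cell development, were represented by the letters AACCACA. The T-box family, to which T-bet and Eomes belong, was represented by the letters GGTGTGA. The letters AGATAA stood for GATA factors such as the Th2 regulator GATA3. For AP-1, which is formed by Jun and Fos proteins after activation, the palindrome TGACTCA was used. The ETS family, which includes Ets1 and Elk3, was represented by the letters AGGAAGT. For TCF-1 and LEF-1, factors of naive and follicular T cells, the letters were TTCAAAG. Binding of NFAT, which follows calcium signals, was represented by the letters TGGAAAA. The first window lies in no annotated gene, in the region nearest to Elk3 that was high in IL-4+ cells, the second also lies in no gene, beyond Dusp5 in a region that was high in lung IL-4+ cells, the third lies in an intron of Tnfrsf1b in a region that was high in both lung populations, and the fourth lies in an intron of Cxcr5 in a region that was high in the lymph node.
nearest Elk3, chr10:93357745-93358044: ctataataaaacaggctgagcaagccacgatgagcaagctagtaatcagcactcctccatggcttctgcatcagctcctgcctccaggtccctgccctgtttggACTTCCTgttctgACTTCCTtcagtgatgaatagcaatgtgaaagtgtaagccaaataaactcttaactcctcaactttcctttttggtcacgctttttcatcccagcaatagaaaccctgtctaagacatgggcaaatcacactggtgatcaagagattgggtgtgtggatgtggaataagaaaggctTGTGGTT
nearest Dusp5, chr19:53555112-53555411: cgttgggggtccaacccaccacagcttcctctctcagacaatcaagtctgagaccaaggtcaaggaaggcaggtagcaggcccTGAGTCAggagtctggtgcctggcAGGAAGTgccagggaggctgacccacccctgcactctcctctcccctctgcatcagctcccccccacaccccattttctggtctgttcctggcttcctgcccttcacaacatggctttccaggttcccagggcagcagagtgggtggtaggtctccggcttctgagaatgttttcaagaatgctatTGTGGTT
Tnfrsf1b, chr4:145219063-145219362: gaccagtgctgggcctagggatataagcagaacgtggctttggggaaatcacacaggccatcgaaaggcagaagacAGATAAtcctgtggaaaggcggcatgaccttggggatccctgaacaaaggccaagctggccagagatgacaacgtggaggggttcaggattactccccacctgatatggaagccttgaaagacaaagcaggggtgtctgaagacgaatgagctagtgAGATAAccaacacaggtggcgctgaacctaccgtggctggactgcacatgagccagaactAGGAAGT
Cxcr5, chr9:44524674-44524973: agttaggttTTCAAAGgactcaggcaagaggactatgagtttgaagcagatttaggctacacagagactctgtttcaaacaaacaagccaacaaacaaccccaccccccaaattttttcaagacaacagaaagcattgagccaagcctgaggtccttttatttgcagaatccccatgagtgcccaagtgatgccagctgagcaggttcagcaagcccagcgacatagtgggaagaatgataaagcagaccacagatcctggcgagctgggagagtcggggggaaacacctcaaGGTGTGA
The window near Elk3 held 1 RUNX and 2 ETS matches. The window near Dusp5 held 1 RUNX, 1 AP-1 and 1 ETS match, that in Tnfrsf1b 2 GATA matches and 1 ETS match, and that in Cxcr5 1 T-box and 1 TCF match. These numbers were ordinary for the members, whose best window held a median of 2 matches, and 48.0% of members had a window with at least 3. In the central 300 bases of all regions, the motifs were found in 11% for RUNX, 13.2% for ETS, 9.49% for AP-1, 15.2% for GATA, 4.9% for T-box, 7.72% for TCF and 7.16% for NFAT. A match is a description of the letters and not a bound site.

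The members were between 3001 and 39098 bp wide with a median of 3799 bp, against a median of 486.5 bp over all regions. The shortest region of the table was 401 bp, the width of 31.2% of regions, which is wider than the window around a summit that the study's methods give. Most members were close to the width limit, with 835 below 4000 bp, 316 between 4000 and 5000 bp, 287 between 5000 and 10000 bp and 27 above that. Together they covered 6.42 Mb of the 83.4 Mb in the table (7.7%). The values did not break at the limit. The 3 narrowest members were at Tspan31 (3001 bp), near Ccnd2 and at Sipa1l1 (both 3002 bp), with mean log2 insertions per kb in lung IL-4+ cells of 3.80, 2.99 and 4.74. The 3 regions just below the limit were at Prkch and Hnrnpf (both 2999 bp) and Tab2 (2998 bp), with 4.27, 2.86 and 4.54. Chromosome 11 held most members in relation to its regions (128 of 7245, 1.77%) and chromosome 16 fewest (47 of 4524, 1.04%).

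The wide regions lay at genes, and most often at their starts. A transcription start of a protein-coding gene was inside or within 1 kb of 922 members (62.9%), against 23.6% of all regions. A further 382 members (26.1%) lay only in gene bodies and 161 (11%) outside genes, against 42.8% and 33.6% of all regions. A longer region meets a start more easily, and no correction for width was made. In 42 members a whole protein-coding gene was covered. Their median GC content was 50.3%, against 46.9% over all regions, and they held 26.7 CpG dinucleotides per kb against 22.7. Per kb, the members held fewer matches to RUNX (0.241 against 0.334), ETS (0.314 against 0.412) and AP-1 (0.199 against 0.279) than all regions did. NFAT matches were at 0.266 per kb in the members and 0.255 in all regions. The members at gene starts held 0.216 RUNX and 0.175 AP-1 matches per kb, close to the 0.211 and 0.168 of all regions at gene starts. The members in gene bodies held 0.27 and 0.232 against 0.392 and 0.317 in all such regions.

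The libraries did not group by population, and this has to be stated before the comparisons. From the deposited values, the number of insertions in a region can be rebuilt as a lower bound, and the log2 ratio of its upper to its lower quartile over all regions was between 1.67 and 1.75 in 3 libraries, which were replicate 1 from the lymph node and the IL-4+ replicates 2 and 3 from the lung. In the other 4, replicate 2 from the lymph node, the first IL-4+ replicate from the lung and the pair of IFNγ+ libraries, it was between 2.91 and 3.09. These are called the narrow and the wide set of libraries below. Fits with the set in the model were added after seeing the data, and the sets were formed from the same values. Their p-values are therefore descriptions and no independent support for a call. The rebuilt totals were between 14005923 and 23564412 insertions in the narrow set and between 39068158 and 91681969 in the wide set. Both IFNγ+ libraries were in the wide set, so that the comparison with IFNγ+ cells could be made within that set against only 1 lung IL-4+ library. At these depths a member was well counted, with a median of between 866 and 5142 and never fewer than 115 rebuilt insertions in a library.

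The CD4 T cell genes Cd3e, Cd4 and Lck held between 3.35 and 9.96 normalized insertions per kb of gene in every library. Of 22 marker genes of other cell types, 6 held no region, among them Cd79b and Ms4a1 of B cells, Lyz2 of myeloid cells, Ncr1 of NK cells and Cdh5 of endothelium. The others were low except Cd79a, whose region also covers the start of Arhgef1, and Cebpa, whose small gene held 14.6 and 13.2 in LN IL-4+ cells and between 5.78 and 6.87 in the 5 lung libraries. Summed over the markers without Cd79a, insertions per kb were 24.2 and 21.0 in LN IL-4+ cells, between 15.1 and 15.9 in lung IL-4+ cells and 13.8 and 14.1 in lung IFNγ+ cells. Without Cebpa as well, the sums were 9.59 and 7.82 in LN IL-4+ cells, between 8.27 and 9.12 in lung IL-4+ cells and 8.04 and 7.97 in lung IFNγ+ cells, so that the sums overlapped. Single markers still differed. Pax5 of B cells held 0.262 and 0.28 in LN IL-4+ cells and between 0.0929 and 0.15 in the 5 lung libraries. Cd8b1 and Epcam were also higher in both LN libraries than in every lung library, and Cdh1 and Kit were lower. Only 1 of the 22 markers had a wide region, and that was the one shared by Cd79a and Arhgef1.

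The members were more accessible per kb than the average region in every library. The median log2 density of the members, in normalized insertions per kb, was 3.99 and 3.56 in LN IL-4+ replicates 1 and 2, 3.61, 4.12 and 4.18 in lung IL-4+ replicates 1 to 3 and 3.45 and 3.49 in lung IFNγ+ replicates 1 and 2. Over all regions it was between 2.08 and 2.22. The members took 11.5% and 8.96% of all normalized insertions in LN IL-4+ cells, 9.32%, 12.4% and 12.9% in lung IL-4+ cells and 8.52% and 8.65% in lung IFNγ+ cells. In both measures the 3 libraries of the narrow set were above the 4 of the wide set, so the order across the sets did not follow tissue or reporter. Within each set the lung IL-4+ libraries were above the LN IL-4+ library in both measures. The IFNγ+ libraries were the lowest of the wide set. This order within the sets was not tested.

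**Figure D1:**
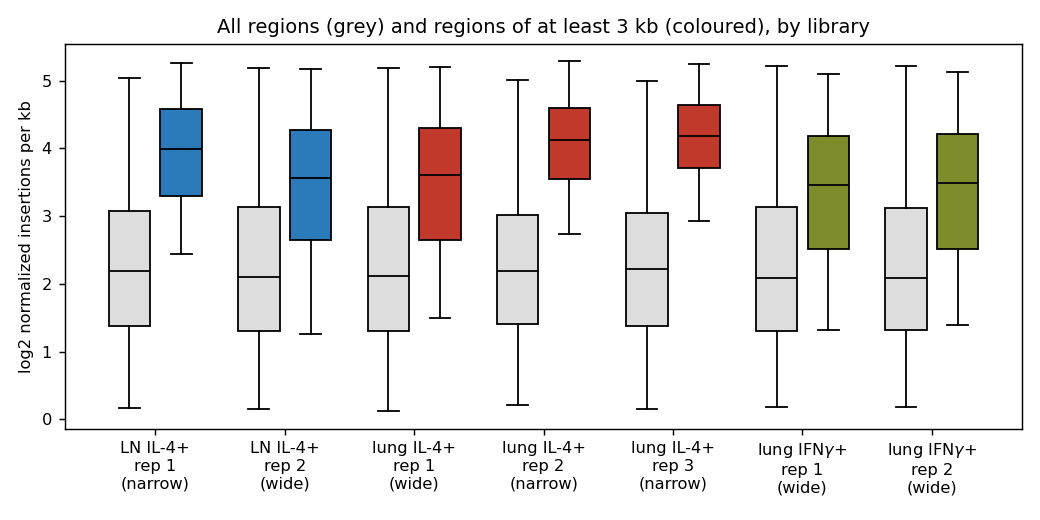
Log2 normalized insertions per kb (y axis) in each of the 7 libraries (x axis, with the set of the library in brackets) for all 113820 regions in grey and the 1465 wide regions in colour. Boxes are quartiles with the median and whiskers the 5th and 95th percentiles; the coloured medians are between 3.99 and 4.18 in the narrow set and between 3.45 and 3.61 in the wide set.

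With a mean density of at least 5 insertions per kb, 1442 members (98.4%) were accessible in lung IL-4+ cells, 1340 (91.5%) in LN IL-4+ cells and 1163 (79.4%) in lung IFNγ+ cells. In all 3 populations 1152 members (78.6%) were accessible, against 30.8% of all regions, and 19 members were accessible in none. The fewest accessible members were in the population with no library of the narrow set.

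Within a member the same split appeared. In 875 of 1465 members (59.7%), all 3 libraries of the narrow set were above all 4 of the wide set, and in 39 (2.66%) they were all below. Over all regions these shares were 14.8% and 13.5%. The mean of the narrow set was above that of the wide set in 89.4% of members, and the median difference was 0.58 on the log2 scale, against -0.04 over all regions. The difference grew with width, from a median of 0.46 below 4000 bp to 0.59, 0.82 and 0.94 in the 3 wider classes. Narrower autosomal regions had medians of 0.10 at the shortest width, -0.21 from there to 1000 bp, 0.22 from 1000 to 2000 bp and 0.35 from 2000 to 3000 bp. It was 0.45 at gene starts, 0.82 in gene bodies and 0.66 outside genes. Across the members, its Spearman correlation was -0.74 with the mean log2 density and 0.26 with width, a description over 1465 regions that share the same 7 libraries. The sets were formed from the rebuilt insertions of all regions, which include the members, so no test was made, and what separates the sets was not tested.

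**Figure D2:**
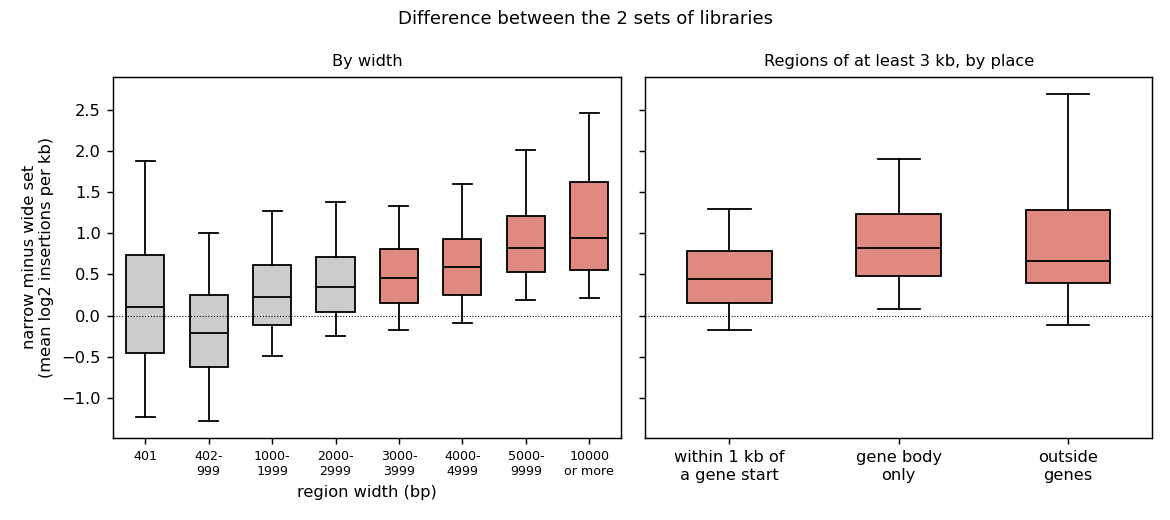
Difference between the mean log2 insertions per kb of the narrow set (3 libraries) and the wide set (4 libraries) on the y axis, by width in bp on the left (wide regions in red) and by position for the wide regions on the right. Boxes are quartiles and whiskers the 5th and 95th percentiles; the median rises from 0.22 at 1000 to 2000 bp to 0.94 at 10000 bp or more, and gene bodies (0.82) are above gene starts (0.45).

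The difference between the sets exceeded 2 on the log2 scale in 37 members (2.53%, against 1.63% of all regions), and 14 of these were every member on chromosome 4 between 146453837 and 147529010, at or between zinc finger genes such as Zfp981, Zfp988 and Zfp992. At Zfp992, log2 density was 4.28, 4.43 and 4.31 in the narrow set and 1.40, 1.43, 1.54 and 1.32 in the wide set. A stretch on chromosome 1 at Mroh2a showed the same, with 4.65, 4.50 and 4.41 against 0.34, 0.87, 1.03 and 0.48 over 16608 bp (chr1:88225276-88241883). The median share of masked repeats in the 37 members was 21.8%, against 13.9% in all members. Others of the 37 lay in T cell genes, with 2 at Fosl2 and 1 at Ets1. At the other end, the region at the start of Crlf2, a receptor chain for TSLP, was at 6.08, 6.13 and 5.91 in the narrow set and 6.52 in each library of the wide set.

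The widest members held several genes of T cell signalling. The widest, over Mroh2a, Hjurp and Trpm8 (chr1:88241889-88280986, 39098 bp), had the same value of 4.28 in all 7 libraries, as the region with the most normalized insertions in every library. Quantile normalization sets values of equal rank equal, so no difference between populations can be read there. Others were at Tnfaip3, which encodes the NF-kB inhibitor A20 (chr10:18990585-19009749, 19165 bp), at Mroh2a (16608 bp), near Btg1 (16324 bp) and near Dad1 (14606 bp). The last lies 31020 bp from the start of Dad1. Sh2d2a, which encodes a T cell adaptor, followed with 14481 bp, then Tcf7, which encodes TCF-1 (14151 bp), the shared region of Nfkbie, Slc35b2 and Hsp90ab1 (13809 bp) and that of Bzw1 and Clk1 (13750 bp).

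The Tnfaip3 region was at 2.96 and 3.21 in LN IL-4+ cells, 4.01, 4.44 and 4.44 in lung IL-4+ cells and 3.21 and 3.23 in lung IFNγ+ cells. The lung IL-4+ libraries were above all others, and the region rose against LN IL-4+ cells by 1.21 (SE 0.23, limma adjusted p = 0.0241). Against lung IFNγ+ cells the difference was 1.08 (SE 0.23, limma adjusted p = 0.0744), or 0.99 with the set of the library in the model (limma adjusted p = 0.0452). The Tcf7 region was at 4.28 and 2.79, then 2.19, 3.41 and 3.52, then 2.16 and 2.13. Here the spread within a population was as large as that between them, and lung IFNγ+ cells differed from LN IL-4+ cells by -1.39 (SE 0.53, limma adjusted p = 0.194). With the set in the model, lung and LN IL-4+ cells differed there by -0.72 (limma adjusted p = 0.0432). The Sh2d2a region was at 3.72 and 2.87, then 3.62, 4.36 and 4.31, then 3.58 and 3.55. It passed in none of the 3 comparisons, except with the set in the model, where the difference between lung and LN IL-4+ cells was 0.67 (limma adjusted p = 0.018).

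The wide regions stood in groups. With gaps of at most 20000 bp, the members formed 1106 groups, of which 204 held at least 2 members and 563 members in all. Of 1150 protein-coding genes overlapped by a member, 185 had at least 2 and 34 at least 4. Ets1, an ETS factor needed in T cells, had the most, with 13 members that covered 61968 bp of 69709 bp (chr9:32694793-32764501). Fam107b had 10, Ubac2 and Nfkb1 9 each, Satb1, a chromatin organizer of thymocytes, 8, and Dusp10, Ikzf1, Cblb and Mbnl1 7 each. Bcl11b, a factor of T cell commitment, had 6.

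Along Ets1 the most accessible member was at 4.78 and 4.50 in LN IL-4+ cells, 4.38, 4.99 and 4.95 in lung IL-4+ cells and 4.04 and 4.08 in lung IFNγ+ cells. The least accessible was at 3.52 and 1.59, then 1.27, 3.16 and 2.98, then 0.74 and 0.91. The libraries were thus close together at the strong member and far apart at the weak one, where the narrow set was above the wide set by a mean of 2.09.

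At Nfkb1, which encodes the p50 subunit of NF-kB, 6 neighbouring members covered 24079 bp in the gene. At Dusp5, which encodes a phosphatase of ERK kinases, 4 members spanned 32513 bp, from the gene start to beyond the gene. In both groups the lung IL-4+ mean was the highest of the 3 populations in every member, although the means mix the narrow and the wide set. At the Nfkb1 member chr3:135646471-135649747, lung IL-4+ replicate 1 was below LN IL-4+ replicate 1 (1.96 against 2.09). At all others each lung IL-4+ library was above every LN IL-4+ and IFNγ+ library. Of the 10 members of both groups, 2 at Nfkb1 and 3 at Dusp5 passed the test between lung IL-4+ and LN IL-4+ cells with any fold. All of these were higher in the lung (background 1.88% higher). Both groups were chosen through members that passed this test, so neither this count nor the high lung IL-4+ means are a separate result.

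**Figure D3:**
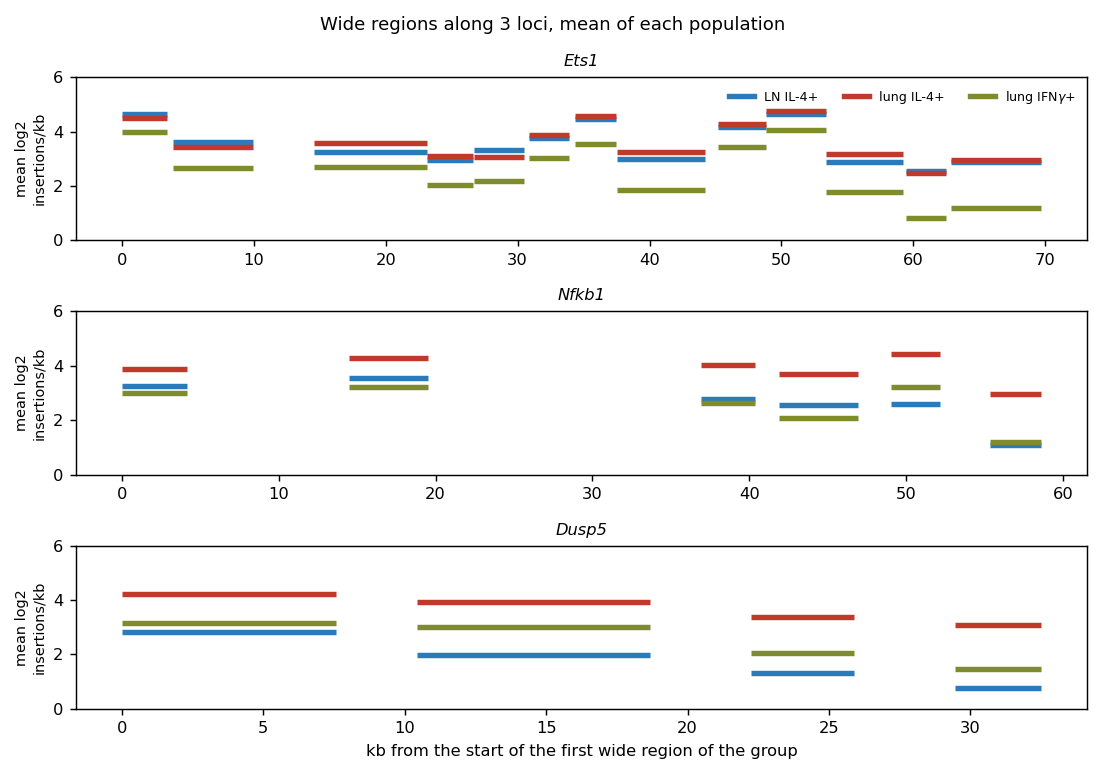
Mean log2 normalized insertions per kb (y axis) of each population over the wide regions of 3 groups, placed by kb from the start of the first wide region (x axis); each bar spans the width of a region. By these means, lung IL-4+ cells are highest in all members of the Nfkb1 and Dusp5 groups, and lung IFNγ+ cells are lowest in all 13 at Ets1. The means mix the library sets, and the Nfkb1 and Dusp5 groups were chosen through members that passed the test between lung and LN IL-4+ cells. At some Ets1 members lung IL-4+ replicate 1, in the wide set like both IFNγ+ libraries, is not above both of them.

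The 3 populations were compared with limma on all 113820 regions, and a region was called where the fold was 3 or more and the adjusted p below 0.05. In at least 1 comparison, 46 members (3.14%) passed an adjusted p below 0.05 with any fold, against 5.75% of all regions. They were 12 at gene starts, 23 in gene bodies and 11 outside genes, that is 1.3%, 6.02% and 6.83% of the members there, against 2.28%, 6.51% and 7.21% of all regions in these positions. The members were measured more closely than the average region, with median standard errors of 0.27, 0.27 and 0.29 on the log2 scale in the 3 comparisons against 0.44, 0.44 and 0.48 over all regions. The 5th and 95th percentiles of the members' differences were -0.09 and 1.39 for lung IL-4+ minus lung IFNγ+, against -1.22 and 1.21 over all regions. They were -0.29 and 1.12 for lung minus LN IL-4+ (all regions, -1.18 and 1.25) and -1.10 and 0.42 for lung IFNγ+ minus LN IL-4+ (all regions, -1.44 and 1.55).

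**Figure D4:**
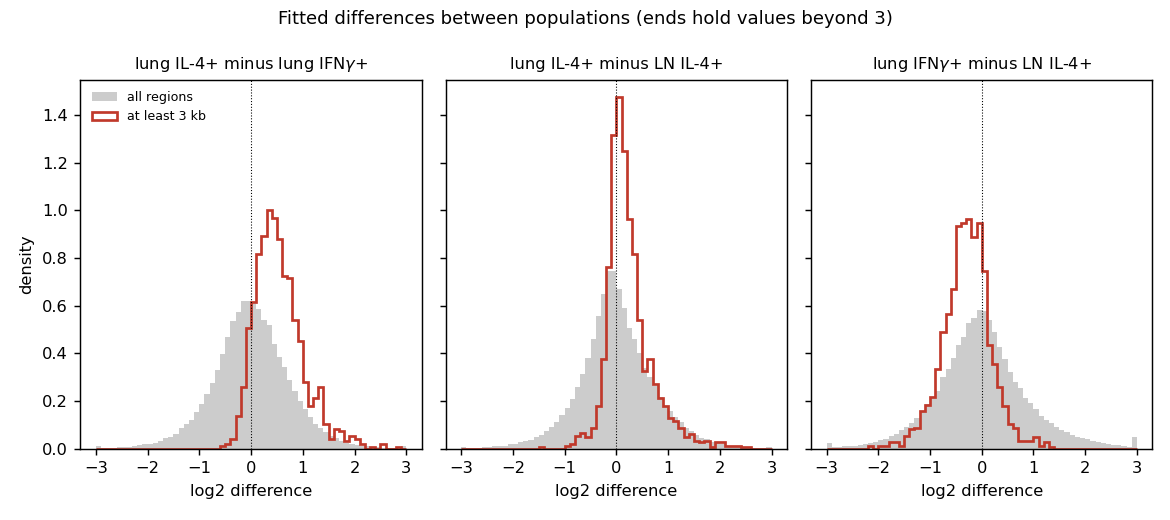
Distribution of the fitted log2 differences between populations (x axis; y axis, probability density) for all regions in grey and the wide regions in red, 1 panel per comparison. The wide regions are shifted to a median of 0.48 for lung IL-4+ minus lung IFNγ+, 0.14 for lung IL-4+ minus LN IL-4+ and -0.29 for lung IFNγ+ minus LN IL-4+, while all regions are near 0.

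Lung IL-4+ cells were compared with lung IFNγ+ cells to ask which open regions differ between the cytokine populations of 1 tissue. At the 3-fold call, 2 members were higher in lung IL-4+ cells and 0 lower, that is 0.137% of members. The background over all regions was 0.496%, of which 0.108% were higher and 0.387% lower. With any fold, 3 were higher and 0 lower (background 0.664%; 0.151% higher and 0.513% lower), and 385 were higher and 0 lower at an unadjusted p below 0.05 (background 6.36% and 8.45%). The median difference was 0.48, with 90.3% of members above 0, against -0.01 over all regions. Within the wide set, that is with lung IL-4+ replicate 1 alone against both IFNγ+ libraries, the median was 0.12. The count of 2 became 9 and 10 without LN IL-4+ replicate 1 or 2, 33, 0 and 1 without lung IL-4+ replicate 1, 2 or 3, and 0 without either IFNγ+ replicate. Of the lung IL-4+ libraries, replicates 2 and 3 belong to the narrow set, and with the set of the library in the model 16 members were higher and 0 lower at any fold (background 1.23% and 1.19%), among them all 3 that passed without it.

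The member nearest to Elk3, an ETS factor gene whose start is 44098 bp away (chr10:93355233-93358453, 3221 bp), was at 3.45 and 2.89 in LN IL-4+ cells, 3.69, 4.05 and 3.75 in lung IL-4+ cells and 1.08 and 0.97 in lung IFNγ+ cells. Both IFNγ+ libraries were far below all 5 IL-4+ libraries, those of the wide set included. Its difference between the lung populations was 2.81 (SE 0.29, limma adjusted p = 0.01), and lung IFNγ+ cells were also lower than LN IL-4+ cells by -2.15 (SE 0.32, limma adjusted p = 0.00614). The first call held under 16 of 21 alternatives (limma adjusted p between 7.38e-06 and 0.323) and the second under 18 of 21. Here and below, held means the same direction and an adjusted p below 0.05, with no fold minimum. The alternatives include the fits by library set that were added after seeing the data. Rebuilt insertions were 346 and 561 in the IFNγ+ libraries and between 532 and 1855 in the others. All IL-4+ libraries came from one reporter line and both IFNγ+ libraries from another, so line and cytokine cannot be told apart for this region.

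A member outside genes and nearest to Timm8a2, 9581 bp away (chr14:122022078-122025093) was at 3.03 and 2.72, then 2.62, 3.44 and 3.42, then 1.25 and 1.46. Again both IFNγ+ libraries were below all others, with a difference of 1.81 between the lung populations (SE 0.34, limma adjusted p = 0.0497), which held under 10 of 21 alternatives. A gene-body member of Itpr1, the IP3 receptor that releases calcium from the endoplasmic reticulum, passed with a smaller fold. It was at 3.82 and 4.20, then 5.01, 5.12 and 5.14, then 3.58 and 3.83, so that the lung IL-4+ libraries stood above the rest. The difference was 1.39 against lung IFNγ+ cells (SE 0.20, limma adjusted p = 0.0219) and 1.08 against LN IL-4+ cells (SE 0.20, limma adjusted p = 0.0194).

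Lung and LN IL-4+ cells were compared to ask which regions differ between tissues within 1 reporter line. By the study's methods, lungs were digested with enzymes and lymph nodes only dissociated mechanically, so tissue and preparation cannot be told apart. At the 3-fold call, 5 members (0.341%) were higher in the lung and 0 lower (background 1.74%; 1.05% higher and 0.695% lower). With any fold, 33 (2.25%) were higher and 0 lower (background 2.93%; 1.88% higher and 1.05% lower), and at an unadjusted p below 0.05 there were 180 and 20 (background 8.82% and 7.38%). The 33 had differences between 0.77 and 2.05, and 17 lay in gene bodies, 9 outside genes and 7 at gene starts. The median over all members was 0.14, and it was 0.10 within the narrow set and 0.05 within the wide set. The count of 5 became 25 and 2 without LN IL-4+ replicate 1 or 2, 23, 0 and 1 without lung IL-4+ replicate 1, 2 or 3 and 3 without either IFNγ+ replicate. All 33 also passed in the fit to the same data with the set of the library in the model. In that fit 159 members were higher and 21 lower (background 6.79% and 4.4%).

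The Dusp5 members led this comparison. The outermost of those called, beyond the gene (chr19:53551806-53555446), was at 1.98 and 0.66 in LN IL-4+ cells, 2.86, 3.58 and 3.66 in lung IL-4+ cells and 2.02 and 2.07 in lung IFNγ+ cells. All lung IL-4+ libraries were above the others, and the difference from LN IL-4+ cells was 2.05 (SE 0.43, limma adjusted p = 0.0342). This call held under 14 of 22 alternatives, and without LN IL-4+ replicate 2, the lowest library, the difference was 1.38 (limma adjusted p = 0.0988). The member in the gene body (chr19:53540017-53548233) was at 2.42 and 1.5, then 3.32, 4.01 and 4.40, then 3.10 and 2.91, with a difference of 1.95 (SE 0.37, limma adjusted p = 0.0233), which held under 16 of 22 alternatives and was 1.49 without that library (limma adjusted p = 0.0703). The member at the start rose by 1.37 (SE 0.32, limma adjusted p = 0.0497).

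A gene-body member of Nfkb1 (chr3:135640176-135643269) was at 2.68 and 2.49 in LN IL-4+ cells, 4.23, 4.72 and 4.30 in lung IL-4+ cells and 3.10 and 3.35 in lung IFNγ+ cells. The 3 populations did not overlap, and the difference between lung and LN IL-4+ cells was 1.83 (SE 0.24, limma adjusted p = 0.00592), a call that held under 19 of 22 alternatives. A second Nfkb1 member rose by 1.25 (SE 0.28, limma adjusted p = 0.0419). Cd69, a surface protein that is induced by activation and holds T cells in tissue, had a member 6464 bp from its transcription start, at 1.93 and 2.15, then 3.38, 3.91 and 4.16, then 2.65 and 2.81. The populations again did not overlap, with a difference of 1.78 (SE 0.30, limma adjusted p = 0.0132). The member nearest to Il10ra, which encodes the ligand-binding chain of the IL-10 receptor, was at 3.12 and 2.19, then 3.85, 4.53 and 4.81, then 2.97 and 2.95, with a difference of 1.74 (SE 0.35, limma adjusted p = 0.0264), which held under 14 of 22 alternatives.

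Below the 3-fold limit, the rise in lung IL-4+ cells included Selplg, which encodes the selectin ligand PSGL-1 (1.47, SE 0.23), Rgs1, a brake on chemokine receptor signalling (1.45, SE 0.22), and a pair of members at Bhlhe40, a transcription factor of activated T cells (1.58 and 0.78). Their limma adjusted p values were 0.0114, 0.01, 0.0307 and 0.0379. The Rgs1 member of 10537 bp was at 3.02 and 3.20 in LN IL-4+ cells, 4.23, 4.71 and 4.75 in lung IL-4+ cells and 4.15 and 4.19 in lung IFNγ+ cells. Here both lung populations were above the lymph node. The IFNγ+ libraries were also above the LN libraries at Selplg and at both Bhlhe40 members. The member at the start of Bhlhe40 was at 5.14, 5.16 and 5.1 in lung IL-4+ cells and 5.18 and 5.21 in lung IFNγ+ cells. It was also higher in IFNγ+ cells than in the lymph node by 0.84 (SE 0.18, limma adjusted p = 0.0323).

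Lung IFNγ+ cells were compared with LN IL-4+ cells, a contrast in which tissue and its preparation, cytokine and reporter line all differ. At the 3-fold call, 0 members were higher and 3 (0.205%) lower in IFNγ+ cells (background 3.03%; 2.17% higher and 0.862% lower). With any fold, 9 were higher and 11 lower, 1.37% of members (background 4.19%; 3.03% higher and 1.16% lower), and at an unadjusted p below 0.05 there were 37 and 141 (background 10.7% and 7.81%). The median was -0.29, and within the wide set -0.07. The count of 3 became 4 and 12 without LN IL-4+ replicate 1 or 2, 8, 1 and 2 without lung IL-4+ replicate 1, 2 or 3 and 0 without either IFNγ+ replicate. All 20 also passed in the fit to the same data with the set of the library in the model. In that fit 55 were higher and 35 lower (background 5.49% and 3.59%).

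Among the members that were lower, Cxcr5, the receptor that guides T follicular helper cells into B cell follicles, had a member of 4839 bp at its start (chr9:44523976-44528814). It was at 4.29 and 3.6 in LN IL-4+ cells, 1.59, 3.10 and 2.76 in lung IL-4+ cells and 1.81 and 1.74 in lung IFNγ+ cells. Both lymph node libraries were above all lung libraries, and the difference from LN IL-4+ to lung IFNγ+ cells was -2.16 (SE 0.48, limma adjusted p = 0.0335). Lung and LN IL-4+ cells differed by -1.46 (SE 0.44, limma adjusted p = 0.116), or by -1.63 with the set of the library in the model (limma adjusted p = 0.00185). Izumo1r, which encodes folate receptor 4 of regulatory and follicular T cells, was at 4.19 and 3.70, then 2.58, 3.51 and 3.50, then 2.27 and 2.29. The lymph node libraries were again the highest, and the difference was -1.66 (SE 0.36, limma adjusted p = 0.0314).

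With a smaller fold, Tbc1d4, a Rab GTPase-activating protein, fell by 1.58 on the log2 scale (limma adjusted p = 0.0476, held under 9 of 21 alternatives) and Ipmk, an inositol phosphate kinase, by 1.49 (limma adjusted p = 0.00675, 17 of 21). Tox2, a factor of follicular helper T cells, fell by 1.18 (limma adjusted p = 0.0115), and 2 members in Ubac2, beside the migration receptor gene Gpr183, fell by 1.31 and 1.23 (limma adjusted p = 0.032 and 0.0307). The member at Gpr183 itself was at 4.65 and 4.35, then 3.53, 4.35 and 4.31, then 3.30 and 3.48, with a difference of -1.11 (SE 0.30, limma adjusted p = 0.0695), or -0.82 with the set of the library in the model (limma adjusted p = 0.0256).

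Among the 9 members that rose in lung IFNγ+ cells against the lymph node were Tnfrsf1b, which encodes TNF receptor 2 (1.35, SE 0.30), Aim2, a sensor of cytosolic DNA (1.27, SE 0.26), Itga2, which encodes CD49b (1.24, SE 0.26), Rora, a nuclear receptor needed by type-2 innate lymphoid cells (1.23, SE 0.26), and Bach2, a repressor of effector differentiation (1.07, SE 0.19). Their limma adjusted p values were 0.0346, 0.024, 0.0289, 0.0288 and 0.0136. These differences were all below the 3-fold limit and held under 12, 14, 15, 14 and 16 of 21 alternatives. The Itga2 member was at 2.22 and 2.09 in LN IL-4+ cells, 3.54, 3.82 and 3.73 in lung IL-4+ cells and 3.47 and 3.33 in lung IFNγ+ cells. The Tnfrsf1b member was at 3.14 and 2.29, then 3.88, 4.24 and 4.05, then 4.07 and 4.05. At both, the lung populations overlapped or lay close to each other, and both were above the lymph node. Of the 9, 8 also rose in lung IL-4+ cells against the lymph node, in a comparison that uses the same LN libraries, and the other was Rora (1.01, SE 0.24, limma adjusted p = 0.0528), which was 0.97 with the set of the library in the model (limma adjusted p = 0.0065).

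**Figure D5:**
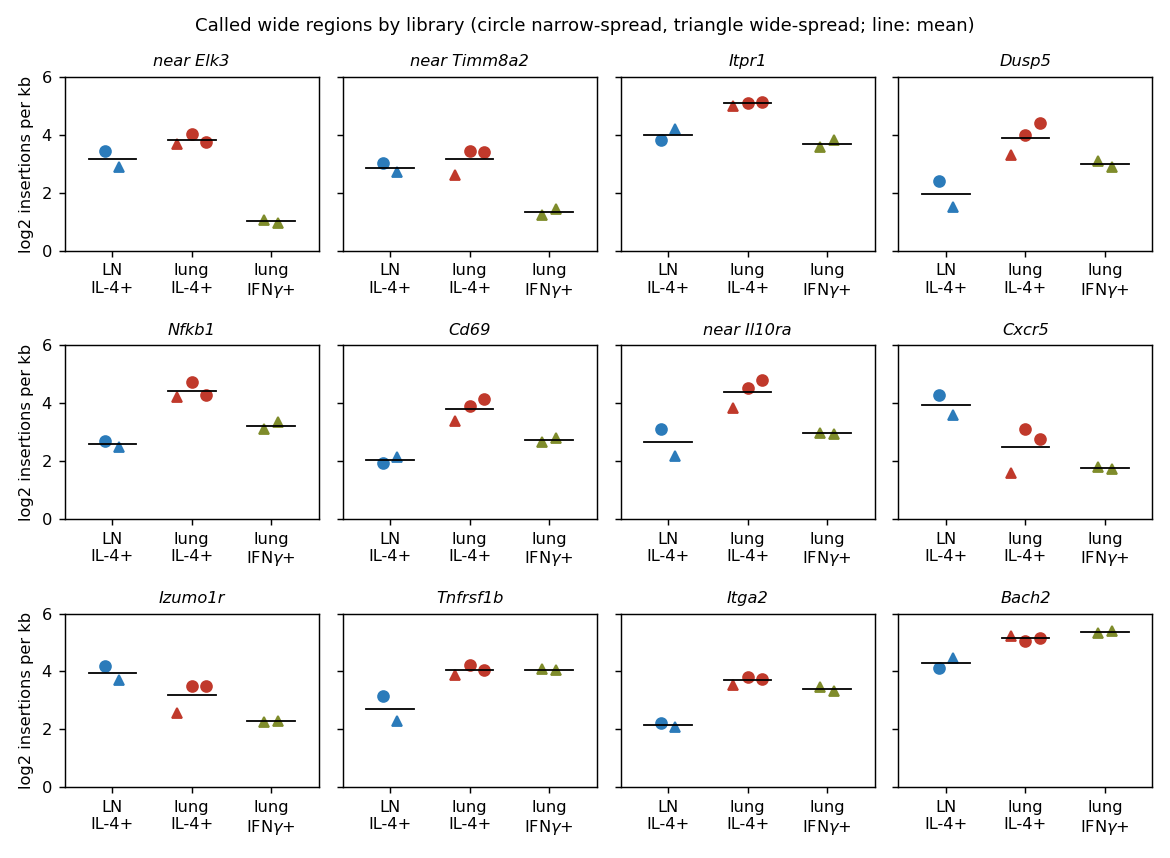
Log2 normalized insertions per kb (y axis) of 12 wide regions in each library, by population (x axis); circles are libraries of the narrow set, triangles of the wide set and lines the population mean. Near Elk3 both lung IFNγ+ libraries are at or below 1.08 and all IL-4+ libraries at or above 2.89, while at Itga2 no LN library exceeds 2.22 and the lung libraries start at 3.33.

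Gene groups were described with 11 lists of genes of T cell biology and of other cell types. A member was given to a gene when it overlapped the gene or 10 kb on each side, and 236 members lay at 117 of the 209 genes. Signal inhibitors had a wide region at 17 of 20 genes, T lineage transcription factors at 16 of 21, T cell receptor and signalling genes at 13 of 21, AP-1, NF-kB and activation factors at 13 of 19 and genes of migration and tissue residency at 14 of 21. Follicular helper genes had one at 11 of 18, Th2 genes at 11 of 19 and costimulation and inhibition genes at 10 of 18. Th1 and cytotoxic genes had one at 5 of 21 and other cell types at 1 of 22. The share over all protein-coding genes was not computed and gene length was not considered, so these counts show no enrichment or depletion. Il4, Il5, Il13 and Ifng, the cytokine genes of the sorted populations, had none, nor did Tbx21.

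Signal inhibitors (36 members) had 4 members that rose in the lung against LN IL-4+ cells with any fold and 0 that fell (background 1.88% and 1.05%), which were the Rgs1 member and 3 at Dusp5, and the Rgs1 member was also higher in lung IFNγ+ cells than in the lymph node. AP-1, NF-kB and activation factors (31 members) had 3 higher and 0 lower, at Tnfaip3 and Nfkb1, and a median difference of 1.00 against 0.14 for all members and -0.03 for all regions. Between the lung populations their median was 1.19, also the highest of the lists, and none of them passed. This list had a median difference between the narrow and the wide set of 1.01, the highest of the lists. With the set of the library in the model, 16 of the 31 rose from LN to lung IL-4+ cells (159 of all 1465 members, background 6.79%). Between the lung populations 5 passed, all with more insertions in IL-4+ cells (16 of all members, background 1.23%). The 31 members lie at 13 genes and 9 of these members are in Nfkb1, so they are not separate observations. The Fosl2 member at 2.01 and -0.98 in LN IL-4+ cells, 2.07, 3.62 and 3.63 in lung IL-4+ cells and 1.34 and 1.70 in lung IFNγ+ cells had the largest difference of the list, 2.59 (SE 0.78, limma adjusted p = 0.119), or 2.23 with the set in the model (limma adjusted p = 0.00352). There the lymph node replicates were nearly 3 log2 units apart.

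T lineage transcription factors had most members, 62, with 1 higher in both lung populations than in the lymph node, that of Bach2, and no member lower. The background for higher was 1.88% in lung IL-4+ and 3.03% in lung IFNγ+ cells. T cell receptor and signalling genes (31 members) had none past the test in any comparison, but with the set of the library in the model 6 of the 31 passed in at least 1. Of these, 5 rose and 1 fell from LN to lung IL-4+ cells (background 6.79% and 4.4%). Th2 genes (15 members) had none past the test in either comparison of lung IL-4+ cells. Their only member past a test was that of Rora, which rose from LN IL-4+ to lung IFNγ+ cells (background 3.03% higher). The list had median differences of 0.82 between the lung populations and 0.51 between lung and LN IL-4+ cells. With the set of the library in the model, 3 of its members rose from LN to lung IL-4+ cells (background 6.79%). The Gata3 member of 9141 bp at the start of the master regulator of Th2 cells was at 3.94 and 3.30, then 2.94, 4.01 and 4.06, then 2.85 and 2.80. The lung IL-4+ values overlapped those of the lymph node, and the difference between the lung populations was 0.84 (SE 0.36, limma adjusted p = 0.317). The Il4ra member of 11582 bp was at 3.44 and 2.64, then 3.73, 4.39 and 4.41, then 3.28 and 3.4, and the difference between lung and LN IL-4+ cells was 1.14 (SE 0.30, limma adjusted p = 0.0787), or 1.02 with the set in the model (limma adjusted p = 0.00239).

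Follicular helper genes (13 members) had 2 that fell in lung IFNγ+ cells against the lymph node, Cxcr5 and Tox2, and none higher (background 1.16% lower and 3.03% higher). Th1 and cytotoxic genes (6 members) had 1 that was higher in both lung populations than in the lymph node, a region near Klrg1, a receptor of effector lymphocytes. It was at 2.86 and 2.65, then 3.68, 3.74 and 3.98, then 3.77 and 3.85, with differences of 1.05 and 1.06 (limma adjusted p = 0.0366 and 0.0405; background 1.88% and 3.03% higher). Migration and residency genes (20 members) had the Selplg member, and costimulation and inhibition genes (13 members) the Cd69 member. The 8 members at long noncoding and miRNA host genes passed no test. All 8 had the narrow set above the wide set without overlap, among them that at the start of Tspoap1 beside Mir142hg, at 4.65 and 3.55, then 4.03, 4.66 and 4.86, then 3.81 and 3.76.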

How the data were processed

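Accessibility was measured by ATAC-seq in 7 libraries of sorted CD4+ T cells, grouped by tissue and reporter as the labels give them. Per the study's methods and the submitters' processing notes, the authors mapped reads to GRCm38 with Bowtie2 2.3.2, removed mitochondrial, blacklisted and low-quality reads, called summits per replicate with MACS2 2.1.1, merged windows around them, counted insertions and normalized them with voom in limma 3.38.3. The deposited values are log2 normalized insertions per kb; with log2 length added back, their sorted values nearly coincide between libraries, so they are also quantile-normalized. Rebuilt insertions are the number of lower distinct values in a library, a lower bound, and cover counting error only.

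All 113820 regions were fitted in limma 3.58.1 (R 4.3.3) with 1 mean per population and no filter, moderated by eBayes (trend in the variance), with p-values adjusted after Benjamini and Hochberg per contrast; the fit was tested on simulated data. Genes came from GENCODE M21. Named regions were the 10 widest, up to 5 past an adjusted p of 0.05 per contrast and direction, up to 2 widest and 2 most changed per list and 3 on each side of the width limit; members beyond these were named after their values were seen. Members and lists were chosen with earlier results of these data known. Alternatives were other scalings, filters, thresholds, widths, covariates and left-out libraries; the fits by library set were added after seeing the data. Python 3.11.15, numpy 2.4.6, pandas 2.3.3, scipy 1.17.1 and matplotlib 3.10.9 were used. Reporter-negative cells were not analysed here. Some named items, including 1 of the 10 widest regions, are not reported here.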

Additional observations from a re-analysis of the deposited data

How the results depend on the processing

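At the 3-fold call, the main counts of members were 2, 5 and 3 for the lung populations, for lung against LN IL-4+ cells and for lung IFNγ+ against LN IL-4+ cells, and depended on the fit in limma. In that order, they were 81, 12 and 7 with array weights, 0, 0 and 1 without a variance trend, 1, 19 and 8 with the set of the library as a covariate and 1, 23 and 18 in the wide set alone (both chosen after seeing the data), and 12 for the second comparison in the narrow set alone, also added. An adjusted p below 0.01 gave 0, 1 and 1. With no fold minimum the second count was 33 and the last 20, and with a fold of at least 2 they were 26 and 19. Fits of only the 2 populations compared gave 10 and 2 in the first and second comparison, and the interquartile range covariate 16 in the second and 1 in the last. Quantile normalization gave 1 and 9 in the first and second, and log2(density + 1), median centring and the GC correction each gave 1 in the first. A width of at least 2500 bp gave 5 in the first and 6 in the last, and one of at least 4000 bp 0 and 2 in the first and second. Leaving out 1 library gave between 0 and 33, between 0 and 25 and between 0 and 12. Where no member was called, between 6 and 38 passed the fold with an unadjusted p below 0.05. The cause of these moves was not tested.

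The replicate block gave 0, 0 and 0 calls, with 6, 12 and 8 members past the fold at an unadjusted p below 0.05. Same-numbered libraries had correlations of their deviations between -0.54 and 0.06. In a population of 2 libraries these deviations mirror each other, and between the IL-4+ populations their signs followed the library sets. The check therefore cannot show whether same-numbered libraries came from the same mice. The main fit treated all libraries as independent. None of the 18 named differences that were recomputed under these alternatives changed direction.

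The members numbered 2493 at 2500 bp and 630 at 4000 bp. Their share of insertions in the lymph node, in lung IL-4+ and in lung IFNγ+ cells was 15.6%, 17.1% and 13.5% at 2500 bp and 5.23%, 6.17% and 4.21% at 4000 bp, with a main value of 10.2%, 11.6% and 8.59%. The median log2 density in lung IFNγ+ cells, 3.47, was 3.58 and 3.29 at these widths and 3.52 with median centring. The share at a transcription start was 66.8% within 2000 bp. Counts at listed genes (215 and 247 with flanks of 0 and 25000 bp) stayed within 1.5 times. There were only 2 or 3 libraries per population, and those of both IL-4+ populations were split between the sets.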
